A study of Homo sapiens with 40 samples.

Results

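The genes described here carry the signal of IL-13 and IL-4 from the cell surface to the nucleus: the receptor chains IL4R, IL13RA1, IL13RA2 and IL2RG, the kinases JAK1, JAK2, JAK3 and TYK2, and the transcription factor STAT6. They were taken by name, through their Ensembl IDs, and make up 9 of the 62263 genes in the deposited table. All 9 were found. RNA came from BEAS-2B, an immortalised human bronchial epithelial line, in which Frac-seq compares total mRNA (input) with mRNA bound to polyribosomes (polysome). Cells constitutively carried a control hairpin (shControl) or a hairpin against the RNA-binding protein IGF2BP3 (shIGF2BP3), were grown in RPMI with 10% FBS, starved in 2% medium overnight, and received either no stimulus or 100 ng/ml IL-13 before harvest at 24 h. The 40 libraries thus formed 8 groups of 5: input and polysome RNA of unstimulated control, IL-13 control, unstimulated knockdown and IL-13 knockdown cells. Each hairpin is represented by 1 line, so knockdown and line cannot be told apart.

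IL-13 binds IL13RA1, which then pairs with IL4R, and this pair also binds IL-4. IL4R can instead pair with IL2RG, the common gamma chain, to bind IL-4 alone. IL13RA2 binds IL-13 tightly and is best known as a decoy. The receptor chains have no enzyme activity of their own: JAK1 sits on IL4R, TYK2 or JAK2 on IL13RA1 and JAK3 on IL2RG. The kinases phosphorylate IL4R, STAT6 docks there, is phosphorylated in turn, forms dimers and enters the nucleus. CISH and SOCS1 belong to the family of inhibitors that such signalling induces and that dampen it.

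Input libraries held 14044337 to 40441006 estimated counts and polysome libraries 1816893 to 34082140. Fewer than 5000000 counts were reached by 3 libraries, all from polysome RNA of the line labelled knockdown. IGF2BP3, the targeted gene, checks the labels: in the counts-per-million unit (CPM), which is relative to all counts of a library, unstimulated input RNA of control cells measured 35.2 ± 11.3 and that of knockdown cells 24.9 ± 3.02 (SD, n = 5 each). With IL-13 the values were 35.4 ± 6.72 and 25.9 ± 6.29 CPM (SD, n = 5 each). The ranges overlapped in both settings. The log2 difference over both treatments was -0.48 ± 0.26 (SE) and did not pass the edgeR test (adjusted p = 0.957), and in polysome RNA it was -0.12 ± 0.27 (adjusted p = 0.886). Of 7 epithelial markers, KRT7, KRT8, KRT18 and KRT19 averaged 43.1 to 1360.0 CPM in input, while EPCAM and CDH1, which define epithelium, and KRT5, a basal cell keratin, averaged 0.428, 0.943 and 0.204 CPM. VIM and COL1A1, mesenchymal markers, averaged 1875 and 566 CPM. Of 8 leukocyte markers, PTPRC, MS4A1 and NKG7 were at 0 in all 20 input libraries and CD14 averaged 17.4 CPM.

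The promoter sequences of 3 genes are shown because the data separate them: CISH, which IL-13 raised, from IL4R and STAT6, for which no response to IL-13 passed the test. Each run is the 250 bases before the annotated start, 5′ to 3′ on the gene's strand, from RefSeq on GRCh38.p14. Capitals mark TTCNNNGAA, the spacing that STAT proteins in general bind. STAT6 is known to prefer the wider spacing, the same TTC and GAA with 4 bases of any kind between them, which was searched as well. Both motifs read the same on both strands, so 1 search covers both.

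CISH, chr3:50611775-50612024, minus strand: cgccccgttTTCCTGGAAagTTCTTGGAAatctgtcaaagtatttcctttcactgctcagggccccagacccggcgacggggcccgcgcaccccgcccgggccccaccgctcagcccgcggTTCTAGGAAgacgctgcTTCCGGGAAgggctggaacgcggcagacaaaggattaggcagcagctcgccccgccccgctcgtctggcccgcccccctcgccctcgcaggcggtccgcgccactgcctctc

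IL4R, chr16:27313724-27313973, plus strand: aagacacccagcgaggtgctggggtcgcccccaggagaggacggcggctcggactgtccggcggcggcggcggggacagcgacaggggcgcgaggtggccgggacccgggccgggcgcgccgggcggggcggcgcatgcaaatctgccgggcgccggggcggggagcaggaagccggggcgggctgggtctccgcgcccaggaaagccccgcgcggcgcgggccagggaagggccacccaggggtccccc

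STAT6, chr12:57110290-57110539, minus strand: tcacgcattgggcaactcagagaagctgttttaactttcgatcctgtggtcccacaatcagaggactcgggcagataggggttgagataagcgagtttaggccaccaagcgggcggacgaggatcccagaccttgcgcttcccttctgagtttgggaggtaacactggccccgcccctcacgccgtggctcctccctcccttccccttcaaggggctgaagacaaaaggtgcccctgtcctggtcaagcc

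CISH held 4 matches of TTCNNNGAA, beginning 241, 230, 129 and 112 bases before the start. Of 35116 promoter entries 2306 held the motif at least once (6.57%), and 5 held it 4 or more times. The wider spacing was in 1888 entries (5.38%), and the CISH entry held 0 matches of it. The table had 13 entries for 8 of the 9 genes of the set, IL13RA2 having none, and 0 of the 13 held either motif. SOCS1, which also rose with IL-13, held neither. A match is a run of letters, and its absence says only that these letters are not in this window.

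BEAS-2B cells held mRNA for IL4R and IL13RA1, for TYK2, JAK1 and STAT6, little JAK2 and traces of JAK3. IL13RA2 (ENSG00000123496.8) was at 0 counts in all 40 libraries. A count of 0 allows up to 3 counts, which is 0.0760 to 1.47 CPM for a single library and 0.00327 CPM over all of them, for counting error only. IL2RG (ENSG00000147168.14) had 13 counts in all, spread over 1 input and 3 polysome libraries. The mRNAs of the ligands IL4 and IL13 were at 0 counts in every library. JAK3 (ENSG00000105639.21), the kinase of IL2RG, had 941 counts in 17 input and 10 polysome libraries. The other genes had counts in 40 libraries, or in 39 for JAK2.

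The deposited transcripts-per-million values (TPM) are scaled for length and so allow genes to be compared. In input, medians over 20 libraries were 33.4 TPM for TYK2, 29.5 for STAT6, 28.9 for JAK1, 13.0 for IL13RA1, 9.14 for IL4R, 0.830 for JAK2 and 0.257 for JAK3. TYK2 exceeded STAT6 in 16 of 20 libraries and JAK1 in 15 of 20, and STAT6 exceeded JAK1 in 12 of 20, so the order of these neighbours lies within their spread. IL13RA1 exceeded IL4R in 19 of 20 libraries although their ranges overlapped. JAK2 lay below IL4R in all 20 libraries, with ranges apart. In polysome RNA the medians were 45.8 TPM for TYK2, 18.0 for STAT6, 11.1 for IL13RA1, 8.72 for IL4R, 4.16 for JAK1, 0.260 for JAK2 and 0.0422 for JAK3. JAK1 thus stood below IL13RA1 in all 20 polysome libraries and below IL4R in 18 of 20. The place of JAK1 in the order depends on the unit in input, where by CPM, which is not scaled for length, the order was JAK1, TYK2, STAT6.

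**Figure D1:**
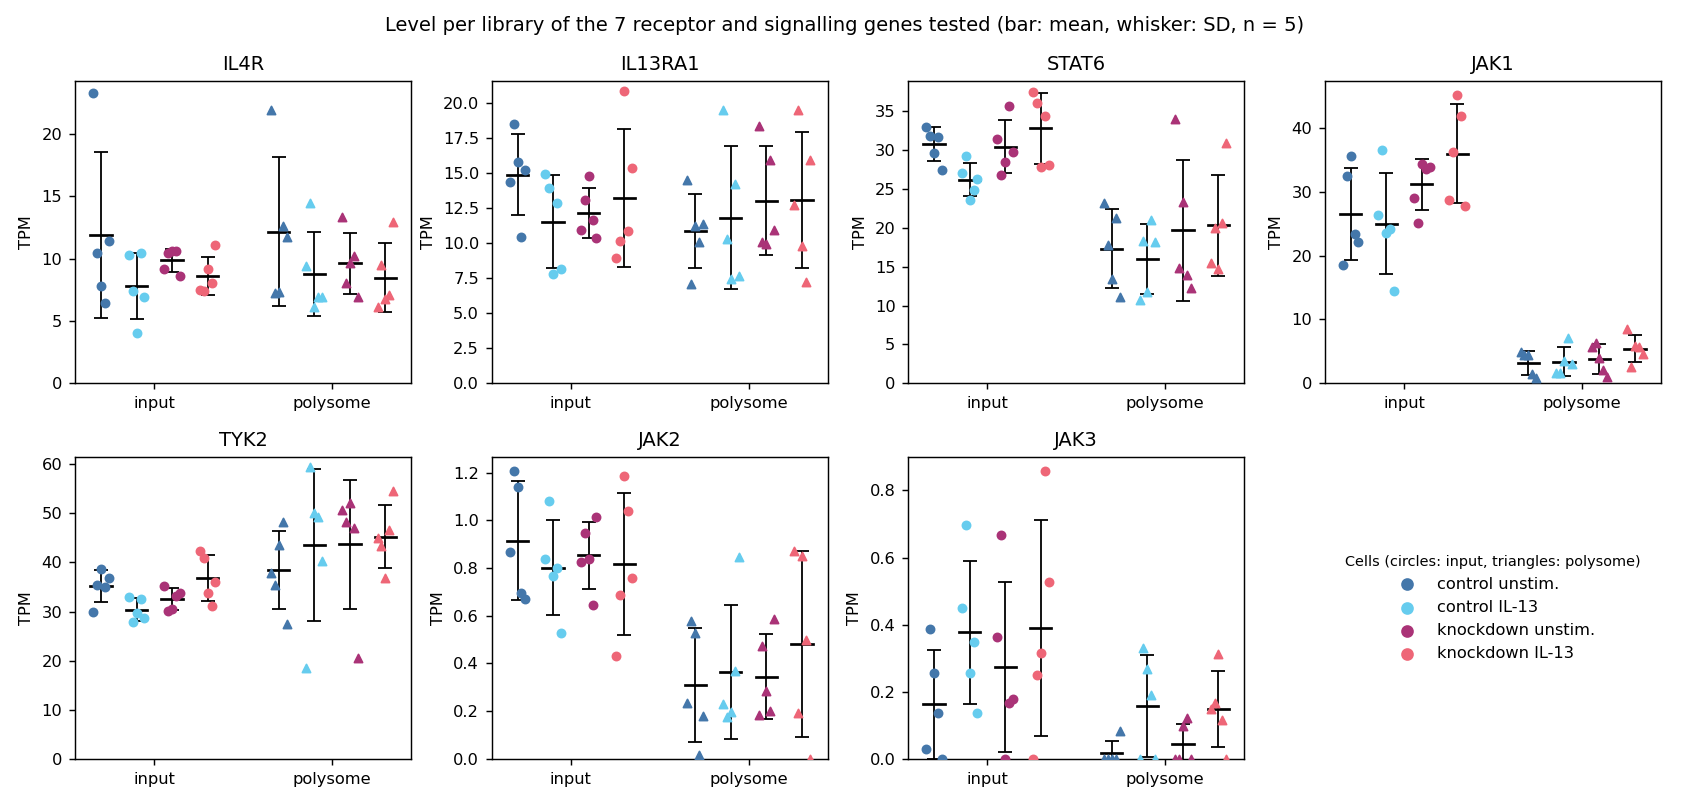
TPM in each library (points), with mean and SD of 5 libraries (bars and whiskers), for the 7 genes that passed the filter on low counts, by fraction and cell state, each on its own linear axis from 0. JAK1 lies at 14.4 to 45.1 TPM in input and at 0.886 to 8.47 TPM in polysome RNA, while the ranges of IL4R and IL13RA1 in the fractions overlap.

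IL4R (ENSG00000077238.14), the chain shared by both receptors, measured 65.3, 27.8, 20.6, 21.3 and 33.8 CPM in the 5 unstimulated control input libraries and 33.3, 20.5, 15.1, 32.3 and 21.9 CPM with IL-13. In knockdown cells it measured 28.4, 33.3, 28.9, 28.7 and 24.3 CPM unstimulated and 22.8, 22.0, 23.9, 23.1 and 33.7 CPM with IL-13. Replicate 1 of the unstimulated control cells was the highest of all 20 input libraries, and every pair of groups overlapped. In polysome RNA the unstimulated control values were 68.0, 21.4, 23.2, 46.1 and 42.2 CPM and those with IL-13 32.2, 54.0, 20.4, 20.3 and 20.1 CPM, with replicate 1 again the highest of the unstimulated libraries. Polysome RNA of knockdown cells gave 36.2, 24.8, 28.6, 34.6 and 19.1 CPM unstimulated and 16.3, 33.2, 19.4, 21.4 and 37.7 CPM with IL-13, so that every pair of groups overlapped here as well.

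IL13RA1 (ENSG00000131724.11), the IL-13-binding chain, had an SD of 7.36 CPM over the 20 input libraries, against 10.3 CPM for IL4R. The SD of IL4R includes its highest library, at 65.3 CPM. Unstimulated control input libraries measured 45.7, 51.3, 46.6, 37.4 and 51.6 CPM, and IL-13 libraries 48.1, 41.8, 29.7, 45.1 and 30.5 CPM. Knockdown input libraries measured 38.0, 46.4, 45.7, 35.2 and 33.3 CPM unstimulated and 31.9, 33.7, 48.8, 35.1 and 48.4 CPM with IL-13. All 4 ranges overlapped. The 20 polysome libraries ran from 25.0 to 77.3 CPM with a median of 41.4 CPM, against 29.7 to 51.6 CPM with a median of 43.5 CPM in input.

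JAK1 (ENSG00000162434.14), the kinase of IL4R, measured 73.8, 124, 135, 109.6 and 94.8 CPM in unstimulated control input libraries and 121, 144, 122, 108 and 67.4 CPM with IL-13. In knockdown input libraries it was 127, 112, 133, 132 and 137 CPM unstimulated and 129, 152, 168, 171 and 122 CPM with IL-13. These ranges overlapped between lines and treatments. Polysome libraries of control cells held 21.7, 19.9, 19.3, 7.44 and 4.46 CPM unstimulated and 7.80, 8.24, 16.8, 29.0 and 13.2 CPM with IL-13. Those of knockdown cells held 22.4, 27.9, 17.5, 9.99 and 3.91 CPM unstimulated and 33.0, 12.6, 23.7, 24.9 and 18.2 CPM with IL-13. Not 1 polysome library reached the lowest input library, 67.4 CPM.

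TYK2 (ENSG00000105397.15), the kinase of IL13RA1, ran the other way. Unstimulated control cells gave 96.9, 113, 121, 134 and 131 CPM in input and 138, 126, 140.1, 212 and 119 CPM in polysome RNA. With IL-13, control cells gave 126, 92.7, 129, 122 and 108 CPM in input and 71.0, 257, 198, 166 and 138 CPM in polysome RNA. The polysome values spread more widely and overlapped input in both states. Unstimulated knockdown cells gave 127, 113, 94.5, 109 and 115 CPM in input and 172, 177, 185, 190.0 and 63.5 CPM in polysome RNA, where 4 libraries lay above all input libraries of that state and replicate 5, which had 1816893 counts in all, lay below. IL-13 knockdown cells gave 159, 141, 103, 107 and 129 CPM in input and 139.7, 180.4, 119.7, 171 and 188 CPM in polysome RNA, overlapping.

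JAK2 (ENSG00000096968.14), a further kinase that can act on IL13RA1, was low. The 20 input libraries ran from 2.74 to 6.52 CPM with a median of 5.08 CPM, and the 20 polysome libraries from 0 to 5.21 CPM with a median of 1.70 CPM. JAK3 ran from 0 to 3.78 CPM in input, median 0.936 CPM, and from 0 to 1.94 CPM in polysome RNA, median 0.171 CPM. In unstimulated control polysome RNA 4 of 5 libraries had no JAK3 count.

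STAT6 (ENSG00000166888.12) measured 104, 87.8, 88.2, 115 and 87.7 CPM in unstimulated control input libraries and 82.4, 61.9, 44.4, 85.0 and 45.1 CPM in the polysome libraries of these cells. With IL-13 control cells gave 96.9, 89.8, 94.8, 86.5 and 97.4 CPM in input and 41.7, 77.8, 45.4, 68.2 and 60.2 CPM in polysome RNA. In both control states every polysome library was below every input library. Unstimulated knockdown cells gave 106, 92.2, 86.2, 110.0 and 92.4 CPM in input and 108, 51.6, 81.8, 54.1 and 39.6 CPM in polysome RNA, with replicate 1 above the others. IL-13 knockdown cells gave 133, 115, 80.8, 107 and 93.7 CPM in input and 47.1, 76.3, 47.3, 70.7 and 88.4 CPM in polysome RNA. Replicate 1 of unstimulated and replicate 5 of IL-13 knockdown polysome RNA, both under 5000000 counts, reached into the input range.

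The first comparison asks whether IL-13 changes the mRNA of its own receptor and kinases. IL-13 raised CISH about 16-fold in control input RNA, from 2.07 ± 0.526 to 33.3 ± 7.52 CPM (SD, n = 5 each), and left no gene of the receptor set past the threshold. In edgeR's quasi-likelihood test with Benjamini-Hochberg adjustment over the 16735 genes that passed a filter on low counts, 0 of the 7 tested members were called in control input, where 0.0777% of all genes were, nor in knockdown input (0.0837%) or over both lines (0.149%). In polysome RNA 0 of 7 were called in control (0.125%), knockdown (0.0956%) and over both lines (0.209%). With so few genes called in all, a count of 0 among 7 is near the background.

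The intervals bound only roughly what could have been missed. Each SE was derived from the log2 fold and edgeR's F statistic. Over both lines in input, the log2 fold of STAT6 with IL-13 was 0.03 ± 0.15 (SE; 95% interval -0.28 to 0.35), of TYK2 0.08 ± 0.17 (-0.26 to 0.41), of IL13RA1 -0.13 ± 0.18 (-0.50 to 0.24) and of JAK1 0.14 ± 0.25 (-0.36 to 0.64). IL4R was at -0.33 ± 0.22 (-0.78 to 0.12). Its value in control input was -0.46 (adjusted p = 1 in edgeR), and -0.07 without replicate 1 of the unstimulated control cells, whose level was the highest. JAK2 was at -0.05 ± 0.35 (-0.76 to 0.66). JAK3 had the lowest p. Its polysome log2 fold in control cells was 3.60 ± 1.41 (edgeR adjusted p = 0.702) and over both lines 2.51 ± 0.94 (adjusted p = 0.620), from 4.3 counts unstimulated and 115.6 with IL-13 in control cells. Without replicate 5 of unstimulated control polysome RNA, which held all 4.3 of those counts, the values were 7.37 and 4.40. That group then held no JAK3 count, so these folds have no measured size. With all libraries and limma on log2(TPM + 0.1), the JAK3 values were 0.93 and 0.84. None of these passed the test.

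Of the 16 inhibitors and phosphatases of the pathway, CISH and SOCS1 rose with IL-13 in both lines and both fractions and none fell. Of all genes tested, 0.0777% were called in control and 0.0837% in knockdown input, and 0.125% and 0.0956% in polysome RNA. CISH had a log2 fold of 4.01 ± 0.25 in control and 3.90 ± 0.25 in knockdown input RNA (edgeR adjusted p = 4.89e-14 and 1.34e-13). SOCS1 rose from 1.67 ± 0.582 to 10.8 ± 4.97 CPM in control input (SD, n = 5 each; log2 fold 2.69 ± 0.39, edgeR adjusted p = 1.10e-04). In the same comparison 0 of 7 adaptors and 0 of 15 tested other cytokine receptor chains were called. With 13 of 16735 genes called there, counts of 0 in such short lists are near the background. The median log2 fold of the 7 tested members in control input was -0.044 and that of all genes tested -0.0025.

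**Figure D2:**
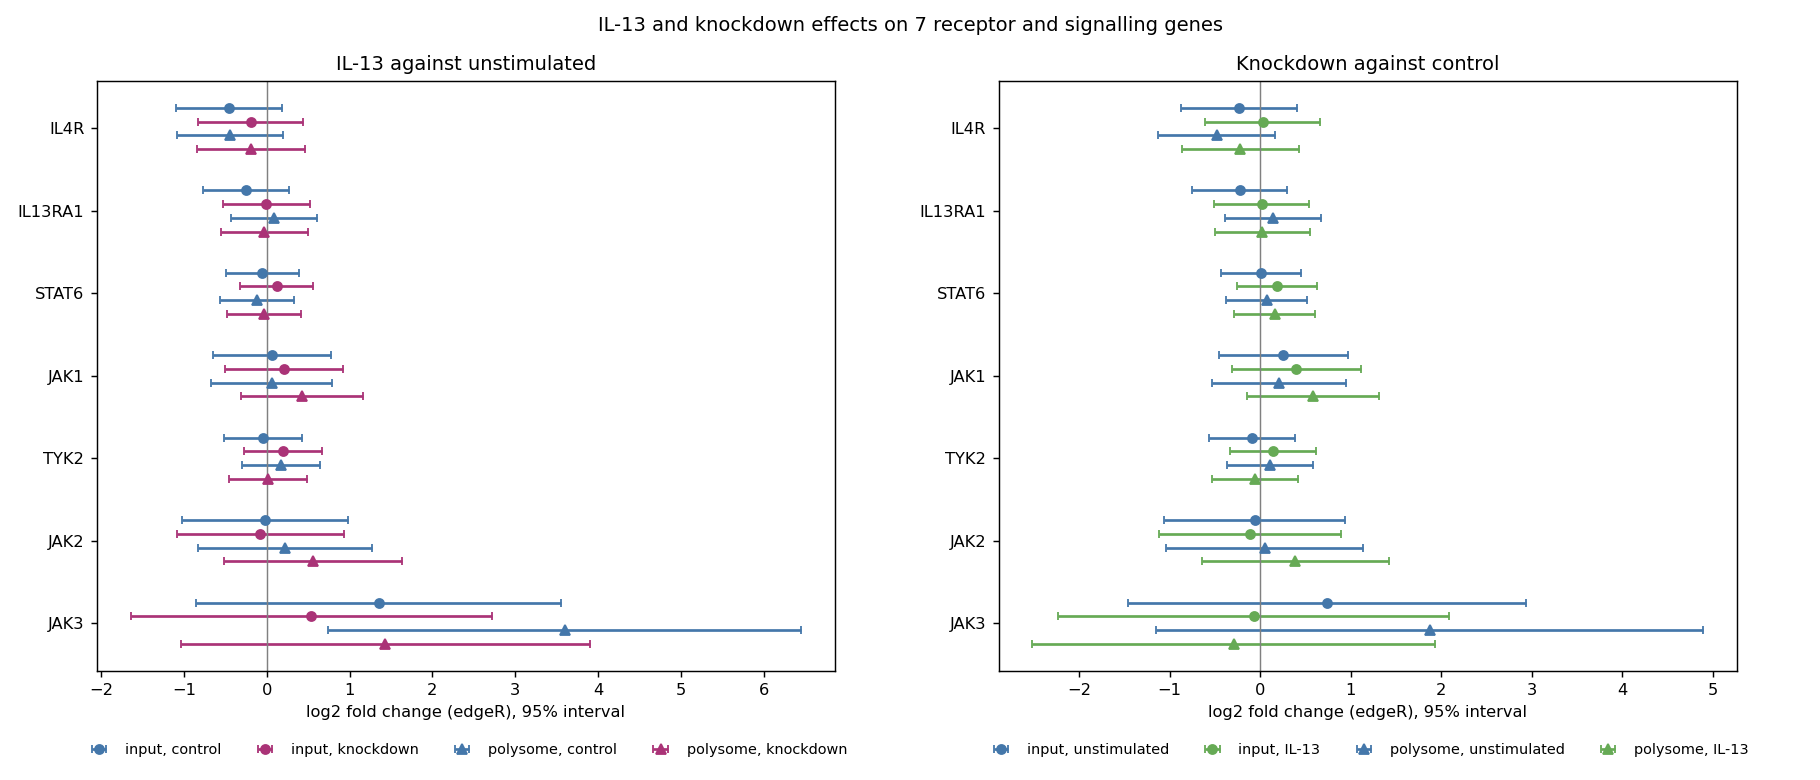
Log2 fold change (points) with 95% interval (bars) from edgeR for 7 genes: left, IL-13 against unstimulated cells; right, knockdown against control cells; circles are input and triangles polysome RNA, and colours mark the line (left) or the treatment (right). Every interval spans 0 except that of JAK3 in control polysome RNA with IL-13 (0.74 to 6.46), and those of JAK3 are the widest.

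The second comparison is between cells labelled knockdown and control. No member was called in input RNA of unstimulated cells (0 of 7, 0.0120% of all genes called), with IL-13 (0 of 7, 0% of all genes) or over both treatments (0 of 7, 0.406%, with 0.311% higher and 0.0956% lower). In polysome RNA the counts were 0 of 7 unstimulated (0.0299%), with IL-13 (0.0896%, with 0.0538% higher and 0.0359% lower) and over both treatments (1.38%, with 0.681% higher and 0.699% lower). The log2 difference of JAK1, knockdown over control, was 0.33 ± 0.25 in input (95% interval -0.18 to 0.83; edgeR adjusted p = 1.00) and 0.39 ± 0.26 in polysome RNA (-0.12 to 0.91; adjusted p = 0.491), and neither passed the test. STAT6 was at 0.10 ± 0.15 (-0.21 to 0.41) and TYK2 at 0.03 ± 0.17 (-0.31 to 0.36) in input. IL4R in unstimulated input was at -0.23 and, without control replicate 1, at 0.15, so that its sign rested on that library.

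Of the pathway lists, and over all 6 knockdown comparisons, IL7R, a receptor chain that pairs with IL2RG, was the only called gene. Over both treatments it was higher in knockdown polysome RNA by 0.96 ± 0.22 on the log2 scale (edgeR adjusted p = 0.0167), and in input by 0.69 ± 0.21 (adjusted p = 0.232). That polysome comparison called 1.38% of all genes tested, 0.681% higher. The 3 libraries under 5000000 counts all belong to its knockdown side, and IL7R was not retested without them. Of 3 endothelial markers only CDH5 was tested, and it was higher in knockdown cells over both treatments in input, by 3.29 ± 0.48 (edgeR adjusted p = 2.22e-04), while PECAM1 and VWF averaged 0.0222 and 0.206 CPM. The summed endothelial markers ran from 0.451 to 2.04 CPM in unstimulated control and from 6.18 to 13.1 CPM in unstimulated knockdown input RNA. Their part in the difference between lines was not tested.

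Whether the response to IL-13 differed between lines was tested as an interaction. 0 of 7 members were called in input (0% of all genes) and in polysome RNA (0%). Whether an effect was larger or smaller in polysome than in input RNA was tested likewise: 0 of 7 for the knockdown in unstimulated cells (0%) and with IL-13 (0.00598%), and 0 of 7 for IL-13 in control (0%) and knockdown cells (0%). Over these and the preceding comparisons 126 member tests were made with edgeR, of which 2 had an unadjusted p under 0.05, both of JAK3 and given above. DESeq2 called 0 as well, with 2 at an unadjusted p under 0.05. Counting these together with all alternatives, 3218 such tests called 0, with a lowest adjusted p of 0.208. They repeat the same comparisons on the same libraries and are not independent of each other.

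The third comparison, polysome against input RNA, separated the members. JAK1 was lower in polysome RNA in every cell state, STAT6, JAK2 and JAK3 were lower over the 4 states, TYK2 was higher, and IL4R and IL13RA1 passed no test. Values are shares of each library, so a fold is relative to the other mRNAs. For a level in either fraction, bulk RNA does not tell fewer cells with an mRNA from less mRNA per cell. The fit called 65.1% of all genes over the 4 states, 26.2% higher and 38.9% lower, with a median log2 fold of -0.24 over all genes. Of the 7 tested members 1 was higher and 4 lower, a share of calls near that background, with a median of -0.62. Of all genes tested, 36.0% had a lower fold than STAT6, 21.9% than JAK2, 9.94% than JAK3 and 72.9% than TYK2. For IL4R the share was 63.1% and for IL13RA1 61.9%. Calls were made against no change after scaling, not against the median of all genes.

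JAK1 was the member farthest from input. Its log2 fold was -2.88 in unstimulated and -2.89 in IL-13 control cells, -2.93 in unstimulated and -2.71 in IL-13 knockdown cells, and -2.85 ± 0.19 over all states (edgeR adjusted p = 3.69e-16). The 20 polysome libraries ran from 3.91 to 33.0 CPM, median 17.8 CPM, and the 20 input libraries from 67.4 to 171 CPM, median 125 CPM, so the fractions did not overlap. Only 422 of 16735 genes (2.52%) had a lower fold. Among 1691 genes whose longest annotated transcript was within 10% of the 5047 bases of JAK1, the median was -0.36 and 46 (2.72%) were lower. Across 16061 genes with an annotated length, length and fold had a Spearman rho of -0.232, a description across genes that are not independent replicates. Without the libraries under 5000000 counts the fold of JAK1 was -2.70.

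STAT6 fell by less. Its log2 fold was -0.60, -0.67, -0.54 and -0.69 in the same 4 states (edgeR adjusted p = 0.0269, 0.0140, 0.0498 and 0.0111) and -0.62 ± 0.11 over them (adjusted p = 5.01e-06). The call in unstimulated knockdown cells was lost without any of 8 of its 10 libraries and kept only without polysome replicate 1 or 3, with a fold of -0.27 without polysome replicate 5. The call in unstimulated control cells was lost without input replicate 4 or polysome replicate 3 or 5, and that in IL-13 control cells without polysome replicate 1.

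JAK2 fell by 1.13 ± 0.26 on the log2 scale over the states (edgeR adjusted p = 2.17e-04), and among single states only in unstimulated control cells (-1.40, adjusted p = 0.0275), a call that ended without input replicate 2 or 3 or polysome replicate 1, 4 or 5. JAK3 was at -1.81 ± 0.61 over the states (edgeR adjusted p = 0.00885) and at -2.75 without replicate 5 of unstimulated control polysome RNA, the only library of that group with JAK3 counts, and at -0.99 with limma on log2(TPM + 0.1). With the culture as a replicate block its adjusted p was 0.0774. TYK2 rose by 0.41 ± 0.12 over the states (edgeR adjusted p = 0.00237), with single-state values of 0.30, 0.52, 0.50 and 0.32 that did not pass. Without polysome replicate 1 the value in IL-13 control cells was 0.71 (edgeR adjusted p = 0.00865), and without polysome replicate 5 that in unstimulated knockdown cells was 0.82 (edgeR adjusted p = 0.00128). IL4R was at 0.13 ± 0.16 (-0.19 to 0.45) and IL13RA1 at 0.10 ± 0.13 (-0.17 to 0.36), adjusted p = 0.483 and 0.534 in edgeR.

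By single state, 3 of 7 members were called in unstimulated control cells (40.2% of all genes called, 22.8% lower), 2 of 7 in IL-13 control cells (39.3%, 22.6% lower), 2 of 7 in unstimulated knockdown cells (38.5%, 22.0% lower) and 2 of 7 in IL-13 knockdown cells (39.3%, 23.3% lower). All called members were lower. JAK1 and STAT6 were the called members in each state, joined by JAK2 in unstimulated control cells. In unstimulated knockdown cells JAK2 polysome and input libraries did not overlap either, at 0.998 to 3.42 against 3.59 to 6.01 CPM, with an edgeR adjusted p of 0.0510, and the call was made without input replicate 4 or polysome replicate 2. In IL-13 control cells JAK2 was called without polysome replicate 5 (-1.66, edgeR adjusted p = 0.0128). JAK3 in unstimulated control cells, at -3.16 with all libraries (edgeR adjusted p = 0.0710), was called without input replicate 5 (-3.47) or polysome replicate 5 (-6.94), the latter leaving no JAK3 count in that polysome group.

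**Figure D3:**
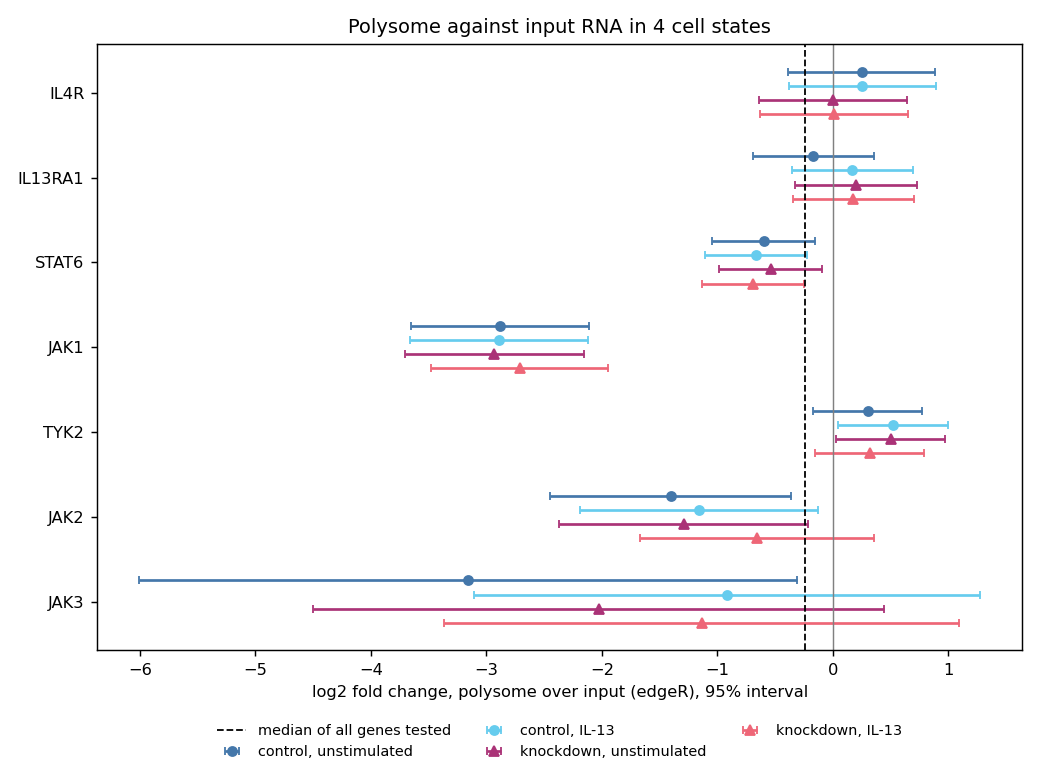
Log2 fold change of polysome over input RNA (points) with 95% interval (bars) from edgeR for 7 genes in 4 cell states (circles control, triangles knockdown); the dashed line is the median of all genes tested, -0.24. The 4 values of JAK1 lie between -2.93 and -2.71, while the intervals of IL4R and IL13RA1 span 0 in all 4 states.

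**Figure D4:**
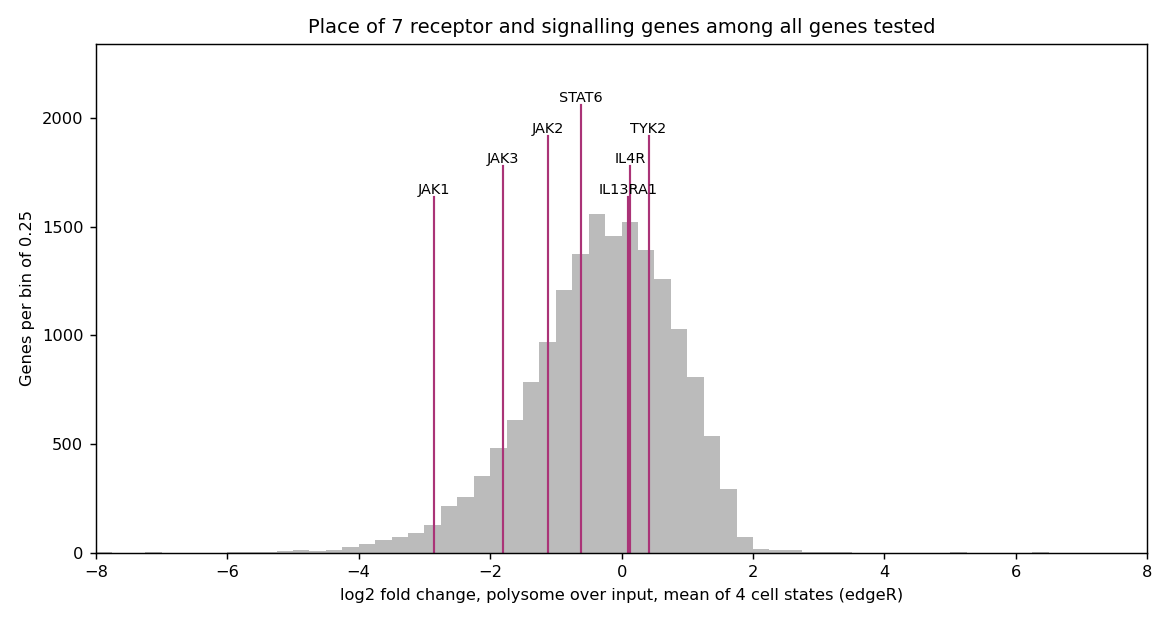
Histogram of the log2 fold change of polysome over input RNA, averaged over 4 cell states, for 16735 genes in bins of 0.25 (grey bars), with the 7 genes of the set as vertical lines whose heights carry no value. JAK1 at -2.85 sits in the lower tail and TYK2 at 0.41 to the right of the centre.

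Ratios within a library need no scaling between libraries. The 3 ratios given here, in TPM, were chosen after the values were seen and are a description, so no p-value is given for them. JAK1 over TYK2 had a median of 0.831 in input (0.501 to 1.35) and of 0.0850 in polysome RNA (0.0258 to 0.189), a log2 difference of -3.43, which was -3.68 to -3.10 within single states. STAT6 over TYK2 went from a median of 0.890 (0.747 to 1.11) to 0.442 (0.234 to 0.671), a log2 difference of -1.07, which was -1.18 to -0.99 within single states. IL4R over IL13RA1, the chains of the IL-13 receptor, was 0.735 in input and 0.802 in polysome RNA, a log2 difference of 0.14 that ran from -0.13 to 0.53 within single states. The fractions did not overlap in the first pair of ratios and overlapped in the last.

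**Figure D5:**
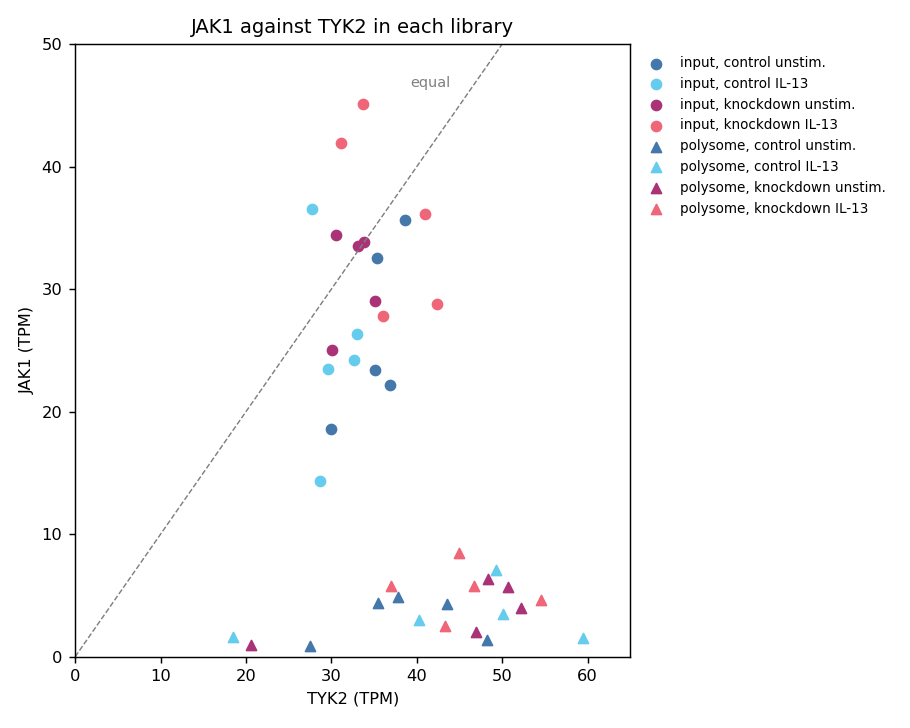
JAK1 against TYK2 in each of 40 libraries, both in TPM on linear axes, with a dashed line where both are equal. Input libraries (circles) lie around the line and polysome libraries (triangles) along the bottom, where JAK1 does not exceed 8.47 TPM.

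Over the same mean of 4 states, other STATs were measured too: STAT2, which carries interferon signals, and STAT3, which carries those of the IL-6 family, were lower in polysome RNA, and STAT4, STAT5A and STAT5B were not called. On the log2 scale STAT2 fell by 2.67 ± 0.18 and STAT3 by 1.76 ± 0.10 (edgeR adjusted p = 2.49e-16 and 4.92e-18). For the counts that follow, 26.2% of all genes tested were called higher and 38.9% lower in this comparison. Of 7 adaptors 1 was higher and 4 lower (median -0.47). GRB2, which links receptors to Ras, rose by 1.45 ± 0.07 and IRS2, a docking protein that IL-4 receptors use, fell by 1.71 ± 0.18 (edgeR adjusted p = 7.20e-21 and 9.44e-11). PIK3R1 at -1.11, IRS1 at -0.90 and PIK3CA at -0.47 were also lower. Of 16 inhibitors and phosphatases 5 were higher and 3 lower (median 0.02), CISH among the higher at 0.69 ± 0.12 and SOCS1 among the lower at -1.60 ± 0.20. The phosphatases PTPN1 and PTPN2 were higher, at 0.61 and 0.54, and PIAS1 and SOCS7 lower, at -1.39 and -0.67. Of 15 tested receptor chains out of 18, 3 were higher and 6 lower (median -0.18). OSMR, the oncostatin M receptor, fell by 1.63 ± 0.15 and IFNGR2 by 1.55 ± 0.12, and IL10RB rose by 0.80 ± 0.20. IL6ST was at -0.93, IFNAR1 at -1.42 and IL22RA1 at 0.78, all called. All 5 mesenchymal markers were lower in polysome RNA, with a summed level of 1818 to 3516 CPM in input and 816 to 1251 CPM in polysome libraries. Their part in the members' differences was not tested.

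As a description over the 20 input libraries, the genes of at least 10 CPM (9029) whose log2 level ran most like each member were listed by Pearson r, with libraries sharing depth, line and treatment. HLA-E (0.935), AKNA (0.920) and ICAM1 (0.908) came first for IL4R, and without unstimulated control replicate 1, the library of highest IL4R, their r was 0.901, 0.887 and 0.822. SEC31A (0.927), CAPRIN1 (0.921) and MYOF (0.916) came first for JAK1, and GPR107 (0.913), THSD1 (0.910) and RCN1 (0.904) for IL13RA1. For STAT6 they were SH3GL1 (0.851), NSMF (0.836) and SFXN3 (0.804), and for TYK2 CPSF1 (0.812), MMS19 (0.808) and ZBTB17 (0.808). JAK2 was closest to RIMOC1 (0.845), WASL (0.824) and SEC24A (0.816), and JAK3 to HSP90AB1 (0.635), ERCC3 (0.634) and USP46 (0.629). JAK3 was low, with counts in 17 of the 20 input libraries. Genes picked as the highest of 9029 have a high r partly by that choice, and chance was not tested. Among the members themselves r ran from -0.63 between STAT6 and JAK2 to 0.61 between JAK2 and JAK3, with 0.566 for IL4R and IL13RA1.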

How the data were processed

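Per the labels' protocols, poly(A)-selected, stranded, paired-end libraries were made from input and polysome RNA. The submitters' processing notes name Trimmomatic, Salmon, MultiQC and DESeq2, without versions or roles; the genome build is not given in the sources used here. The deposited table holds estimated counts per gene, not whole, made by the authors, and TPM, scaled by the authors for length and depth, whose sum per library is 82.3% to 85.9% of the full scale. The table writes siC and siIGF2BP3 where the protocol speaks of hairpin lines, and the protocol was followed. Of 62263 Ensembl IDs, 62246 matched a symbol.

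The design had assumed counts that are rounded first: estimated counts were rounded to whole numbers, filterByExpr kept 16735 genes with at least 99.91% of each library's counts, and 7 of 9 members passed, IL13RA2 and IL2RG not. edgeR 4.0.16 (R 4.3.3) fitted 1 mean per group over all 40 libraries with TMM scaling and 32 residual degrees of freedom. For each of 23 comparisons, two-sided p-values were adjusted over the 16735 genes (Benjamini-Hochberg), and a gene was called under 0.05. An SE is the absolute log2 fold divided by the square root of the test's F statistic. The 95% intervals were built from it, so both are approximate. CPM were computed from scaled library sizes, and the biological coefficient of variation edgeR gave was 0.342 for input and 0.52 for polysome RNA. Alternatives used DESeq2 1.42.0 and limma 3.58.1 (log2(TPM + 0.1)). The test was tried on simulated data. Transcript lengths came from GENCODE v29 for 96.0% of genes tested.

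No label states that replicates were separate cultures, so p-values measure the spread between these libraries, which may be technical. No replicate duplicated another of its group: over 80 pairs within groups, chi-square divided by its degrees of freedom was at least 15.27. The labels name no molecular identifiers, so reads need not be independent molecules and floors cover counting error only. The members, gene lists and alternatives were chosen with earlier results of these data known. The 9 members and IGF2BP3 are always named, called list genes up to 6 of smallest p per comparison, and for likeness the 3 genes of highest r per member. Results of some list genes are not reported here.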

Additional observations from a re-analysis of the deposited data

Results flagged for a closer look

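In each group of 5 libraries the highest and lowest CPM of a member were compared with the next, the gap being taken as a share of the group's range (Dixon's critical value 0.71). For the 7 tested genes 5 of 56 groups passed it, a count that includes the JAK3 group given below. Chance flags about 1 in 20. A group in which a single library holds any count passes by construction, as for JAK3 and IL2RG here, and such groups cannot be set against a chance rate. TYK2 was 212 CPM in unstimulated control polysome replicate 4 against 118.7 to 140.1 CPM in the others, and 63.5 CPM in unstimulated knockdown polysome replicate 5, from 130.1 counts, against 172 to 190.0 CPM. IL4R was 33.7 CPM in IL-13 knockdown input replicate 5 against 22.0 to 23.9 CPM. JAK2 was 5.21 CPM, from 48 counts, in IL-13 control polysome replicate 5 against 1.36 to 2.18 CPM. JAK3 was 0.446 CPM, from 4.3 counts, in unstimulated control polysome replicate 5 and 0 in the other 4 libraries.

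IL2RG is given for the 4 libraries that held any count of it, each against 0 in the other 4 of its group: 0.0963 CPM in IL-13 control input replicate 2 (3 counts), 0.209 CPM in unstimulated control polysome replicate 1 (2 counts), 0.264 CPM in IL-13 control polysome replicate 2 (6 counts) and 0.0938 CPM in unstimulated knockdown polysome replicate 4 (2 counts).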

How the results depend on the processing

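No called value changed sign under any alternative run. Of the counts of members called, 202 values stayed within 1.5 times the reported one and 4 did not, all in polysome against input: 1 in unstimulated control cells with only the libraries compared, 4 in IL-13 control cells with DESeq2's Wald test, and 1 in unstimulated knockdown cells with DESeq2 size factors and 1 with no filter beyond 1 count. Leaving out each library gave 2 to 4, 2 to 3, 1 to 2 and 2 members called in the 4 states and 5 over them. For single members, 1421 values kept their side of the threshold, 10 moved past it and 8 fell back; leaving out a library, 2496 kept it, 7 moved past it and 17 fell back. Over the 4 states, leaving out a library included, JAK1 stayed between -3.08 and -2.67, STAT6 between -0.77 and -0.48 and TYK2 between 0.29 and 0.57, all called, while JAK3 ran from -2.75 to -0.99. Without a filter IL2RG was tested 23 times and called 0 times. The fit restricted to the libraries compared is the full fit for the mean of 4 states and was not run there. JAK3 had 941 counts in all, IL2RG 13 and IL13RA2 0, which limits what can be said of them. The causes of the changes were not tested.

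The labels do not say that replicate numbers pair libraries. Of 20 input and polysome pairs of the same number and state 9 had a correlation of deviations over 0.1 (-0.487 to 0.621, median 0.014), and 4 of 20 input libraries matched their own number best. With the number as a replicate block 3, 2, 2, 2 and 5 members were called in the 4 states and over them, and with the culture as a replicate block 3, 2, 2, 2 and 4.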
